A study of Mus musculus with 5 samples.

Results

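The cytosolic ribosomal protein genes are the genes that encode the protein components of the cytosolic ribosome. They were taken as the protein-coding genes whose GRCm38 symbol is Rpl or Rps followed by a number, with an optional a, l, x or y, together with Rplp0, Rplp1, Rplp2 and Rpsa, and with at least 10 counts summed over the 5 libraries. The rule found 78 of the 55487 genes counted, 47 of the large (60S) and 31 of the small (40S) subunit. Another 2 symbols, Rpl10l and Rpl39l, had 0 counts in every library and were left out. The members lie on 19 chromosomes, with 14 on chromosome 7 and 4 on X. The RNA came from HT22 cells, an immortalized line derived from mouse hippocampus, collected 48 h after transfection with 10 nM of siRNA. The KD groups received GAS5 siRNA210 (1 library) or GAS5 siRNA596 (2 libraries), and the control group received NC siRNA (2 libraries), although the treatment field of the labels calls the controls untreated. All libraries share the cell line, the transfection and the time point, and the study's methods speak of repeated experiments in general without saying whether libraries of a group came from separate cultures, so P-values measure only the spread between these samples, which may be technical. siRNA210 has a single library and cannot be tested alone.

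Each ribosomal subunit holds 1 copy of nearly every ribosomal protein, so their mRNAs are needed in similar numbers and are among the most abundant in a growing cell. In mammals these mRNAs carry a 5′ terminal oligopyrimidine (TOP) tract, a C at the first transcribed base followed by a run of C and T, through which mTOR and LARP1 control their translation and stability. Gas5, the long non-coding RNA targeted by the siRNAs, is a TOP RNA as well, and it hosts small nucleolar RNAs (snoRNAs) in its introns, as do many ribosomal protein genes.

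The starts of Gas5 and of some members named below are printed first because the TOP tract is the feature that Gas5 and these genes are known to share. The lines of Gas5, Rplp2, Rpl15, Rps10 and Rps27 were chosen because the RefSeq start has a tract. Rps27l and Rpl3l were added as paralogs. The lines therefore do not show how common a tract is among members. Each line holds 30 bases, 15 before and 15 from an annotated RefSeq start, 5′ to 3′ on the strand of the gene (GRCm38.p6), and capitals mark an unbroken run of C and T that begins with C at the annotated start. The lines without capitals belong to members whose first base at the RefSeq start shown is not the start of such a tract.
Gas5, chr1:161035151-161035180, plus strand: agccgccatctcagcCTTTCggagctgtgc
Rplp2, chr7:141447636-141447665, plus strand: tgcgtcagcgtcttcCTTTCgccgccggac
Rpl15, chr14:18270972-18271001, minus strand: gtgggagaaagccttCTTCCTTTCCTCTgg
Rps10, chr17:27635230-27635259, minus strand: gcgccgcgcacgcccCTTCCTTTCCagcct
Rps27, chr3:90213634-90213663, minus strand: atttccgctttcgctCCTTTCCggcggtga
Rps27l, chr9:66946071-66946100, plus strand: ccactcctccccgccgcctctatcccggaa
Rpl3l, chr17:24727811-24727840, plus strand: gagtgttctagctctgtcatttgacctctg

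The Gas5 start lies inside the gene as annotated by GENCODE (chromosome 1, 161034422 to 161038539, plus strand). Gas5 and Rplp2 share the tract CTTTC at the start, and Rps27 differs from its paralog Rps27l in having a tract at the start shown. A RefSeq start was at hand for 58 of the 78 members, and 13 of these (22.4%) had a start of this kind, a C followed by at least 4 bases of C or T, against 2.79% of 9824 other protein-coding genes tested. Since an annotated start can lie some bases away from the one a cell uses, CTTTC was also searched on the sense strand from 25 bases before to 50 bases after each RefSeq start. It was found for 30 of the 58 members (51.7%), for 9.10% of the other protein-coding genes tested and for 11.1% of all genes with a RefSeq start. With the starts of GENCODE transcripts, 20 of 78 members (25.6%) and 4.34% of the other genes began with a tract. A match describes letters only, and the share of members without a match says nothing about how those mRNAs are translated.

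The libraries held 30660265 to 36492134 counts. The library labelled siRNA596 replicate 2 stood apart from the other 4, with 19244 genes detected against 21866 to 22605, and Gas5 went against its label there. Gas5 was at 90.3 CPM (a share of the library's counts, scaled by the TMM method of edgeR) in NC replicate 1, 76.0 in NC replicate 2, 59.6 with siRNA210 and 65.8 in siRNA596 replicate 1. It was at 179 CPM in the library labelled siRNA596 replicate 2. The comparison of KD with NC therefore rests on 2 KD libraries (siRNA210 and siRNA596 replicate 1) and the 2 NC libraries, and values with all 5 libraries are given beside it. Over the 4 libraries Gas5 was lower in both KD libraries than in both NC libraries, by 0.41 ± 0.11 (SE) on the log2 scale. Since 1 library was left out with its Gas5 level known, this value is a description and no test is given for it. With all 5 libraries its log2 fold change was 0.29. Neuron markers were partly present. Of 11, 5 had at most 3 counts in any library (Rbfox3, Snap25, Nefl, Nefm and Prox1). Syt1, Gad1 and Gad2 reached at most 0.168, 0.223 and 0.104 CPM. Map2 was at 31.5 to 86.9 CPM, Tubb3 at 14.9 to 27.1 and Slc17a7 at 1.67 to 3.71. The list summed to between 52.1 and 105 CPM. Col1a1, a collagen of fibroblasts, was between 2974 and 4413 CPM and Col1a2 between 710 and 1179, but Dcn, another fibroblast marker, was at most at 0.782 CPM and no glia or vessel marker exceeded 1.90. Among neural progenitor markers Vim was at 2547 to 4357 CPM, Nes at 446 to 509, Pax6 at 35.7 to 49.3, Fabp7 at most at 0.908 and Sox2 at 0.

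Summed over all 78 members, the ribosomal protein mRNAs were at 36643 CPM in NC replicate 1, 33625 in NC replicate 2, 37172 with siRNA210 and 35886 in siRNA596 replicate 1. The 2 KD libraries lie between or just above the 2 NC libraries. The means were 35134 ± 2134 (SD, n = 2) in NC and 36529 ± 909 (SD, n = 2) in KD, a ratio of 1.04, and an exact permutation test of 2 against 2 libraries cannot give a two-sided P below 0.333. Members took 3.81% of all counts in NC replicate 1, 3.54% in NC replicate 2, 3.81% with siRNA210 and 3.72% in siRNA596 replicate 1. CPM and percent of counts are shares of a library and do not give the amount of RNA per cell. In the library labelled siRNA596 replicate 2 the sum was 117624 CPM, 3.28 times the mean of the other 4, and members took 10.1% of its counts. Large subunit members summed to between 1.51 and 1.66 times the small subunit members in every library, with the lowest ratio in that library.

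Set against Gas5, the summed ribosomal protein level was 406 times the Gas5 level in NC replicate 1, 443 times in NC replicate 2, 624 times with siRNA210 and 545 times in siRNA596 replicate 1. Both KD libraries lie above both NC libraries, with means of 584 ± 55.5 in KD and 424 ± 26.0 in NC (SD, n = 2 each), a ratio of 1.38. The ribosomal protein sum itself differed by 1.04-fold between the same groups, so most of this ratio came from the Gas5 level it is divided by. In the library labelled siRNA596 replicate 2 the quotient was 657, the highest of the 5, with Gas5 and the ribosomal proteins both at their highest.

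**Figure D1:**
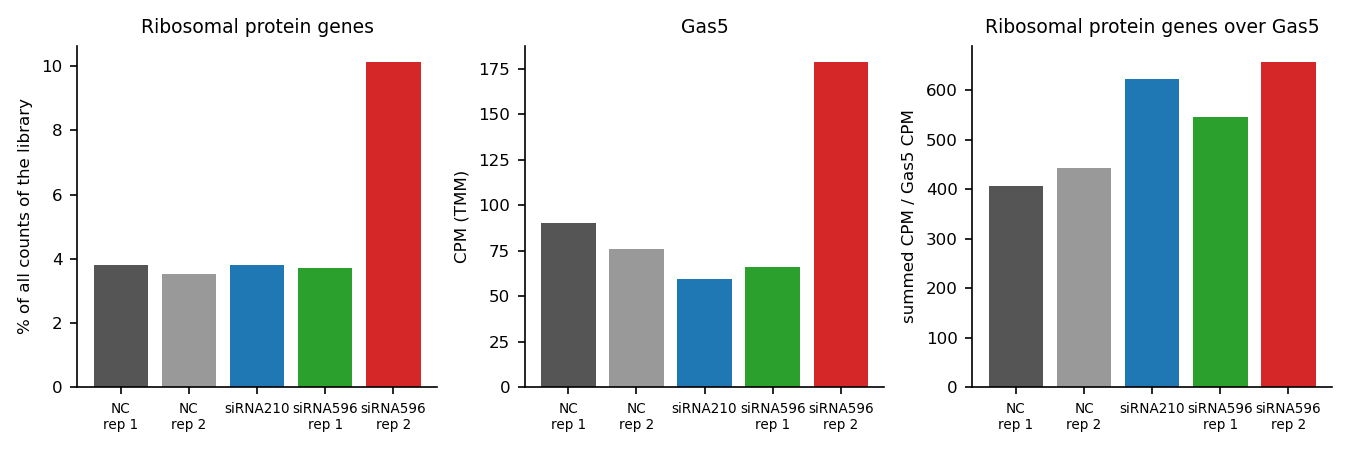
Bars give, for each of the 5 libraries, the percent of all counts that fell on the 78 ribosomal protein genes (left), the Gas5 level in CPM (middle) and the summed ribosomal protein CPM divided by the Gas5 CPM (right). The share lay between 3.54% and 3.81% in 4 libraries and at 10.1% in the library labelled siRNA596 replicate 2, where Gas5 also stood highest.

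Levels of single members were compared per kb of transcript, as the mean CPM per kb over the 4 libraries. Most members lay close together, with a median of 528 CPM per kb, quartiles of 392 and 737, and 61 of 78 members within 2-fold of the median. Rpl41, which encodes the smallest ribosomal protein, was the highest at 2559 CPM per kb. The acidic stalk proteins, which recruit translation factors to the large subunit, were at 1739 (Rplp1), 1372 (Rplp0, the base of the stalk) and 786 (Rplp2). The 10 highest over all 5 libraries also held Rpl13 at 1345, Rpl8 (a neighbour of the peptidyl transferase centre) at 1228 and Rps15 at 1089. Rps2, at the mRNA entry channel, was at 1087, Rpsa, which is also known as the laminin receptor, at 928, and Rpl36 at 909. The order held between libraries, with Spearman's rho over the 78 members of 0.985 for NC replicate 1 against NC replicate 2, 0.990 against siRNA210, 0.979 against siRNA596 replicate 1 and 0.940 against the library labelled siRNA596 replicate 2, as a description over genes that share libraries.

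The lowest members were Rpl3l (0.134 CPM per kb), Rpl24 (1.14), Rps10 (11.8) and Rpl13a (39.3). Rpl3l, a paralog of Rpl3 known from striated muscle, had 6 and 10 counts in NC, 4 with siRNA210, 7 in siRNA596 replicate 1 and 2 in the library labelled siRNA596 replicate 2, and it alone of the 78 members did not pass the filter on low counts. Its main member Rpl3, which lines the peptidyl transferase centre, was at 502 CPM per kb. The low Rpl24, Rps10 and Rpl13a values are uncertain. Exons of Rpl24 overlap Gm28037 on the same strand over 47.0% of their length, those of Rpl13a overlap Gm45713 over 35.4%, and Rps10 overlaps RPS10-NUDT3, and how reads in 2 genes were counted is not given in the sources used here. Rps20 (123 CPM per kb) is divided by an annotated transcript of 3706 bases, the longest among the members, whose median is 705 bases. Most ribosomal protein genes have many processed pseudogenes, and 76 of the 78 members share at least 1 stretch of 50 bases with another annotated gene, over a median of 35.9% of their stretches and up to 85.6% (Rpl3). Levels of such members could be split with their copies.

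**Figure D2:**
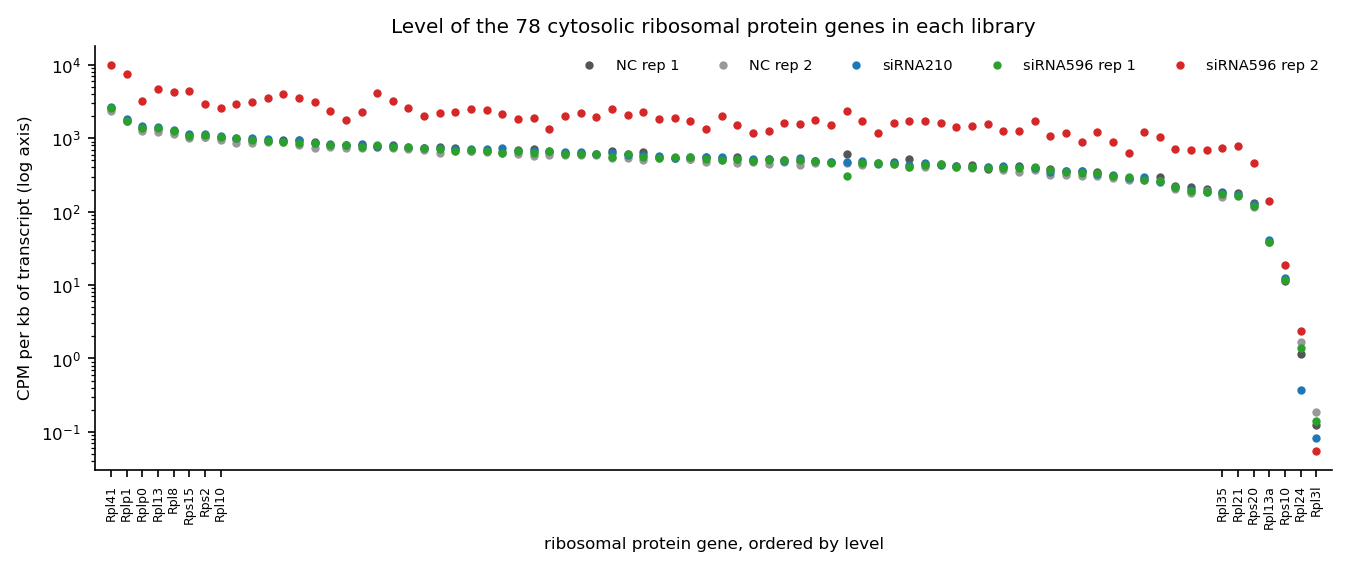
Each column is a ribosomal protein gene (the highest and the lowest are named), ordered by its mean over the 4 libraries, and each point is its level in 1 library in CPM per kb of transcript on a log axis. The points of 4 libraries nearly coincide, the library labelled siRNA596 replicate 2 lies above them for 77 of 78 genes, and Rpl13a, Rps10, Rpl24 and Rpl3l fall off at the right.

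No member passed the test of KD against NC. Over the 4 libraries 77 members were tested among 15867 genes, and 0 had an adjusted P under 0.05 in edgeR, as did 0% of all genes. At an unadjusted P under 0.05 there was 1 member, Rps27a, which was lower, against 3.3% of all genes in either direction, 1.55% in the lower and 1.75% in the higher direction. DESeq2 called 0 members at either threshold. The median log2 fold change of the members was 0.05, against -0.0023 over all genes, and 75 of 77 members lay within 0.2 of 0, with the lowest at -0.65 (Rpl24). The median size of the change was 0.054 for members and 0.12 for all genes, with a median SE of 0.083 for members. A log2 fold change above 0 was found for 60 of 77 members, against 49.5% of all genes.

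That slight lean to higher values in KD was smaller than the difference between the controls. NC replicate 2 was below NC replicate 1 for 71 of 77 members, against 51.4% of all genes, with a median log2 ratio of -0.12. For 58 of 77 members the NC libraries differed from each other by more than KD differed from NC. A ratio of single libraries varies more than a fold change between groups of 2, so a majority here has no meaning by itself. Of the 4 libraries the lowest value was in NC replicate 2 for 61 members, and the highest was in NC replicate 1 for 33 and with siRNA210 for 32. The counts of this kind were not made over all genes. Both KD libraries lay above both NC libraries for 20 members, against 16.7% of all genes, and below them for 2 members (Rps15a and Rps27l), against 16.2%, whereas the groups overlapped for 55. The lean to higher values depended on which NC library was used. Without NC replicate 1 the median was 0.10 and 17 members were higher at an unadjusted P under 0.05, against 9.39% of all genes, and without NC replicate 2 the median was -0.0050 with 0 members higher (1.4% of all genes) and 3 lower (1.12%). None passed an adjusted P of 0.05 in either case.

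**Figure D3:**
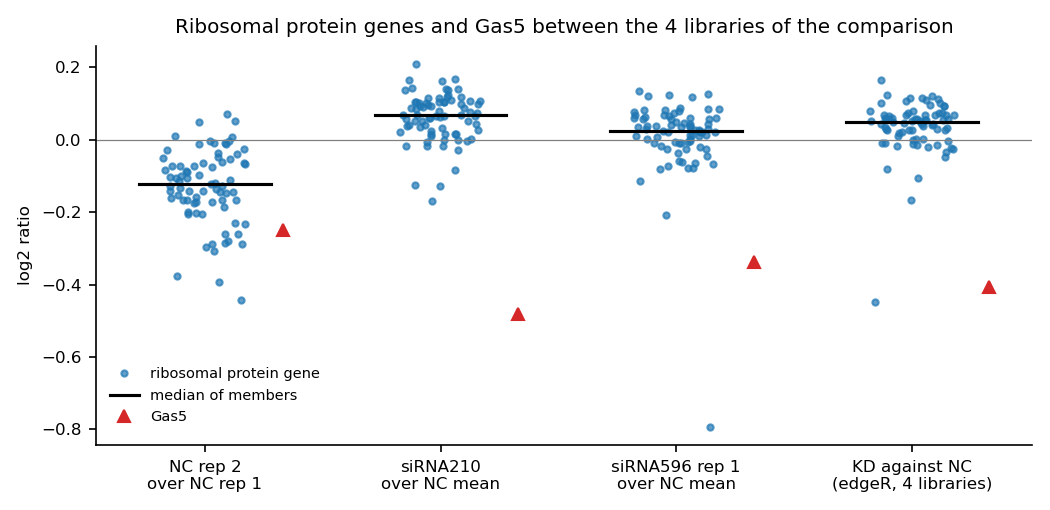
Each point is the log2 ratio of a ribosomal protein gene between the libraries named below it (77 genes tested, Rpl24 not drawn), black lines are medians over the 77 and triangles are Gas5. The medians are -0.12 for NC replicate 2 over NC replicate 1, 0.07 for siRNA210, 0.03 for siRNA596 replicate 1 and 0.05 for KD against NC, and Gas5 lies below nearly all members in the last 3.

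Among the members with the smallest unadjusted P in the lower direction, Rps27a encodes a ribosomal protein of the small subunit made as a fusion with ubiquitin. It was at 393 CPM in NC replicate 1, 290 in NC replicate 2, 304 with siRNA210 and 197 in siRNA596 replicate 1. The siRNA210 library lies between the NC libraries, and only siRNA596 replicate 1 lies below both. The log2 fold change was -0.45 ± 0.19 (SE), with an unadjusted P of 0.0456 and an adjusted P of 0.967. A fit with 1 of the 4 libraries left out leaves 1 library in a group, so only its log2 fold change is given. Without siRNA596 replicate 1 it was -0.17, and without NC replicate 1 it was -0.21. Without siRNA210 it was -0.80, and without NC replicate 2 it was -0.65. With all 5 libraries it was 0.96. Rps29, a zinc-binding protein of the small subunit, was at 206 and 159 CPM in NC, 168 with siRNA210 and 158 in siRNA596 replicate 1 (log2 fold change -0.17). Without NC replicate 1 its fold change was 0.03, so its direction came from that library. Rpl30 was at 169 and 147 CPM in NC, 145 with siRNA210 and 150 in siRNA596 replicate 1 (-0.10), and without NC replicate 1 its fold change was -0.0028. Rps27l, a p53-responsive paralog of Rps27, was at 100 and 95.3 CPM in NC, 92.3 with siRNA210 and 93.0 in siRNA596 replicate 1 (-0.08, unadjusted P 0.344 by edgeR). Its 2 KD values lie just below its 2 NC values. Rps27 itself was at 172 and 158 CPM in NC, 169 with siRNA210 and 172 in siRNA596 replicate 1 (0.04), so its groups overlap. Rpl24 rested on 27 and 43 counts in NC, 9 with siRNA210 and 34 in siRNA596 replicate 1 (-0.65 ± 0.64, SE), and without siRNA210 it was 0.0025.

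Among those in the higher direction, Rpl6 had the tightest values, at 658 and 655 CPM in NC, 711 with siRNA210 and 713 in siRNA596 replicate 1 (log2 fold change 0.11 ± 0.08, SE, unadjusted P 0.160 and adjusted P 0.967 by edgeR). Both KD libraries of Rpl6 lie above both NC libraries. Rpl13 was at 1053 and 954 CPM in NC, 1125 with siRNA210 and 1064 in siRNA596 replicate 1 (0.12). Rpl15 was at 515 and 479 CPM in NC, 535 with siRNA210 and 543 in siRNA596 replicate 1 (0.11). Rpl26, which is also known to bind the p53 mRNA, was at 513 and 457 CPM in NC, 528 with siRNA210 and 529 in siRNA596 replicate 1 (0.12). For Rpl13, Rpl15 and Rpl26 as well the groups do not overlap, but NC replicate 2 is the farthest value from the rest.

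**Figure D4:**
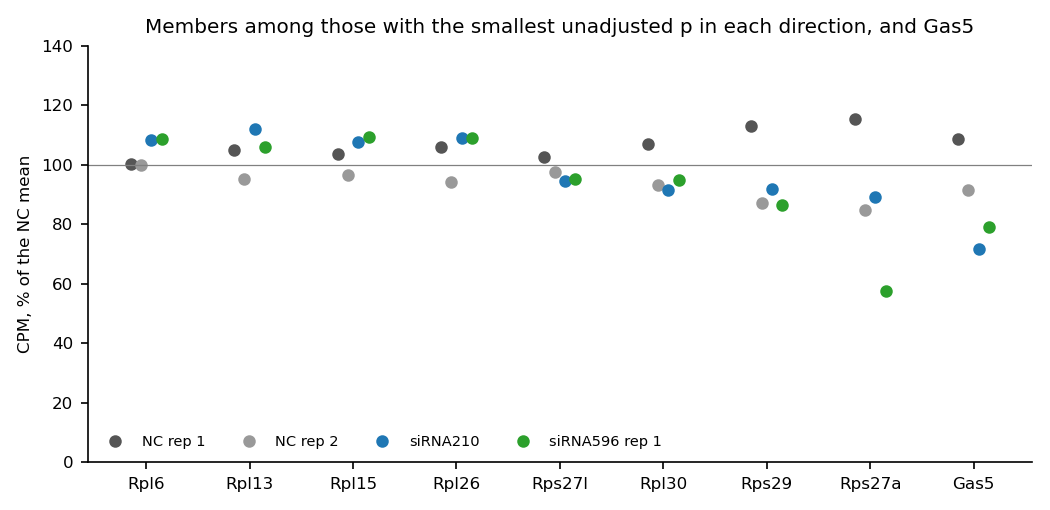
Points give the CPM of each of 8 members and of Gas5 in the 4 libraries as a percent of the mean of the 2 NC libraries, with the axis from 0. Gas5 is below both NC libraries in both KD libraries, Rps27a is so only in siRNA596 replicate 1, and the 4 members at the left are above the NC mean in both KD libraries.

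The members were also described by role and structure. Large subunit members had a median log2 fold change of 0.06 (46 tested) and small subunit members 0.04 (31 tested). The 29 members whose introns hold snoRNAs, 56 in all and up to 5 in Rpl4, had a median of 0.06, and the 48 others tested 0.04. Members with a GENCODE start of TOP kind had a median of 0.04 (20 genes) and those without one 0.05. The 24 members that share over 50% of their 50-base stretches with other genes had a median of 0.05, as did the 53 others tested. The differences between these medians were not tested.

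Genes that work with the ribosomal proteins were read from fixed lists. Of 7 ribosomal proteins that the symbol rule leaves out, 0 had an unadjusted P under 0.05. Rack1, a signalling scaffold on the small subunit, was at 875 and 759 CPM in NC, 913 with siRNA210 and 847 in siRNA596 replicate 1. Fau, made as a fusion with a ubiquitin-like protein, was at 461 and 356 CPM in NC, 498 with siRNA210 and 444 in siRNA596 replicate 1. Rps3a1 was at 795 and 733 CPM in NC, 796 with siRNA210 and 765 in siRNA596 replicate 1. None of these 3 had an adjusted P under 0.967 by edgeR. A list of 19 translation factors and other genes (among them Tpt1, Npm1 and Hnrnpa1) was taken as TOP mRNAs without a check of their starts. It had a median of 0.04 with 12 above 0 and 0 at an unadjusted P under 0.05. Eef1a1, the elongation factor that brings aminoacyl-tRNA to the ribosome, had the smallest P (0.206, log2 fold change 0.11, by edgeR). The 12 snoRNA host lncRNAs tested besides Gas5 had a median of 0.02 with 0 at an unadjusted P under 0.05. Snhg17 had the smallest P there (0.177, log2 fold change -0.15, by edgeR), beside -0.41 for Gas5.

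The list of ribosome assembly factors, which also holds genes of RNA polymerase I transcription, had mostly negative log2 fold changes. Of 40 tested, 2 had a log2 fold change above 0 (49.5% of all genes), 4 were lower at an unadjusted P under 0.05 (1.55% of all genes) and 0 passed the adjusted threshold, with a median of -0.16. Nol6, a factor of the small subunit processome, was at 65.4 and 84.5 CPM in NC, 58.5 with siRNA210 and 61.1 in siRNA596 replicate 1 (log2 fold change -0.33, unadjusted P 0.0242 and adjusted P 0.967 by edgeR). Here too the NC libraries differed, with a median log2 ratio of 0.26 for NC replicate 2 over NC replicate 1, in the opposite direction to the ribosomal proteins. Without NC replicate 2 the median of the list was -0.013, without NC replicate 1 it was -0.24 with 20 lower at an unadjusted P under 0.05 (7.06% of all genes), and with all 5 libraries it was 0.22. Of 21 regulators of TOP mRNAs tested, 1 was higher and 0 lower at an unadjusted P under 0.05 (1.75% and 1.55% of all genes), with a median of -0.08. The 1 was Pdcd4, an inhibitor of the helicase eIF4A (0.28, unadjusted P 0.0495 and adjusted P 0.967 by edgeR). The 81 mitochondrial ribosomal proteins tested, which are not TOP mRNAs, had a median of -0.00042 with 40 above 0, and the smallest P was that of Mrpl54 (0.0728, by edgeR). Of 291 ribosomal protein pseudogenes counted, 87 were tested, with a median of -0.03, 2 higher at an unadjusted P under 0.05, a share near the 1.75% of all genes, and 0 lower. The smallest P was that of Rps2-ps6 (log2 fold change 0.52, unadjusted P 0.0385 and adjusted P 0.967 by edgeR).

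The library labelled siRNA596 replicate 2 held more of nearly every ribosomal protein mRNA. Relative to the mean of the other 4 libraries, the 77 members tested had a median log2 ratio of 1.79 (3.45-fold), and 76 of them were over 2-fold higher, against 15.9% of all genes, whose median was -0.05. All 77 were above that mean, against 46.4% of all genes. As a single library it gives no test of this difference, and with all 5 libraries in the fit of KD against NC the median of the members was 0.89, with 76 of 77 above 0 (51% of all genes) and 0 at an unadjusted P under 0.05 in edgeR (0.372% of all genes). Gas5 was 2.45-fold higher (1.29 on the log2 scale), and 70 of the 77 members exceeded it.

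The highest members there were Rplp2 (1727 CPM, against 321 to 337 in the other 4 libraries, a log2 ratio of 2.38) and Rps27a (1495 CPM, against 197 to 393, a log2 ratio of 2.34). Rpl21 followed with 716 CPM against 149 to 162 (2.22) and Rpl36 with 1528 CPM against 339 to 359 (2.13). The 2 partners of Rplp2 in the stalk were at 2.11 (Rplp1) and 1.24 (Rplp0). The lowest of the members tested was Rps10, at 9.27 CPM against 5.68 to 6.15 (0.66). Rpl24 (1.04), Rpl15 at 1069 CPM against 479 to 543 (1.04) and Rpl23a, which sits at the exit of the peptide tunnel, at 355 CPM against 152 to 168 (1.16) followed. Even for these the library was above each of the other 4. Rpl3l, with 2 counts, was the only member of the 78 that was not highest there. Of the RefSeq starts printed above because they carry a tract, Rplp2 is among the highest members and Rpl15 and Rps10 are among the lowest. By the GENCODE starts Rplp2 and Rpl15 have none, and the median log2 ratio was 1.84 for the 20 members with a tract and 1.73 for the 58 without, a difference that was not tested.

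Transcript length moved with the values of this library. Over all genes tested the ratio fell with length (Spearman's rho -0.48, across genes), and over the members rho was -0.40. Members are short, and in each length class their median was above that of other protein-coding genes. Up to 600 bases the median log2 ratio was 1.90 for 29 members and 1.38 for 210 other genes, and from 600 to 1000 bases 1.71 for 31 members and 1.21 for 706 others. From 1000 to 1500 bases it was 1.67 for 11 members and 0.85 for 1331 others, and from 1500 to 3000 bases 1.54 for 5 members and 0.25 for 4578 others. With offsets for length and GC content the median of the members was 0.75, with 76 of 77 above 0, against -0.04 for all genes and 0.35 for Gas5. Small subunit members had a median of 1.84 and large subunit members 1.72 before the offsets. Other measures moved with this library too, since mitochondrial genes took 1.13% of its counts against 1.39% to 1.58% in the others. The neuron markers summed to 52.1 CPM against 97.2 to 105, mostly through Map2 (31.5 CPM against 68.8 to 86.9). Tubb3, at 18.8 CPM, lay within the 14.9 to 27.1 of the others. Neural progenitor markers summed to 4865 CPM against 3044 to 3721, and glia, vessel and fibroblast markers to 3820 against 4622 to 5206. The part of these in the ribosomal protein values was not tested.

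**Figure D5:**
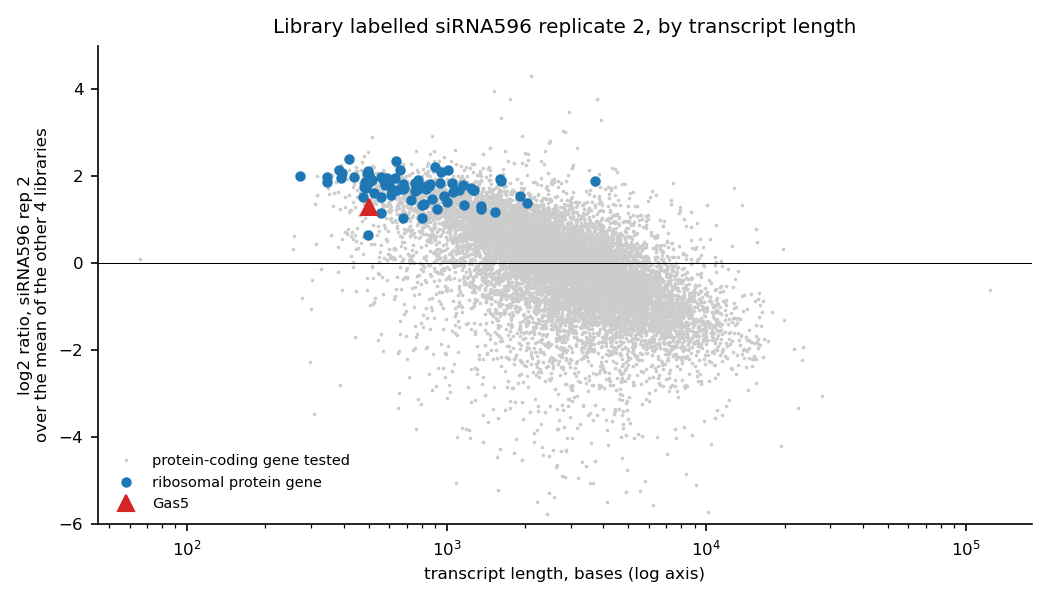
Each grey point is a protein-coding gene tested (4 of 12470 lie outside the drawn range), with transcript length in bases on a log axis and the log2 ratio of the library labelled siRNA596 replicate 2 to the mean of the other 4 libraries. The ratio falls with length, the ribosomal protein genes (blue) lie between 0.66 and 2.38, and Gas5 (triangle) lies at 1.29 below most of them.

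The other lists moved with this library to different extents. The median log2 ratio was 1.49 for mitochondrial ribosomal proteins, 65 of 81 of which were over 2-fold higher, and 1.77 for ribosomal protein pseudogenes. It was 1.27 for the ribosomal proteins outside the rule and 1.03 for the snoRNA host lncRNAs besides Gas5. The list of ribosome assembly factors was at 0.97, and that of translation factors and other genes taken as TOP mRNAs at 0.85. TOP regulators were at -0.19. Eef1a1, at 7283 CPM against 5287 to 6053, was 1.26-fold higher.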

How the data were processed

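Poly(A) RNA of HT22 cells was sequenced by the authors. The table deposited by the authors holds raw counts, the number of reads on each gene, not normalized. Per the submitters' processing notes, HISAT2 2.1.0, SAMtools 1.7, featureCounts 2.0.1 and DESeq2 1.26.0 were used on GRCm38. The strand setting and the treatment of multi-mapping reads are not given in the sources used here. A second deposited table of the authors' fold changes and P-values was not used.

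Symbols, transcript lengths and shared 50-base stretches came from GENCODE M21 (GRCm38), which named 99.4% of the genes. Starts came from RefSeq. A level per kb is the CPM divided by the length of the shortest principal (APPRIS) transcript, or else of the median basic transcript.

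Counts were normalized by TMM and tested with the quasi-likelihood test of edgeR 4.0.16 (R 4.3.3) for genes kept by filterByExpr, KD (siRNA210 and siRNA596 replicate 1) against NC. Adjusted P-values are Benjamini-Hochberg over all genes tested. The steps were tested on simulated data. Alternatives were all 5 libraries, DESeq2 1.42.0, other scalings and filters, each library left out, a replicate block, and offsets for length and GC content. Named genes were Gas5, the 10 members highest per kb over all 5 libraries, the 5 with the smallest P in each direction, the 5 highest and 5 lowest in the library labelled siRNA596 replicate 2, members with paralogs, members that failed the filter, 4 genes the symbol rule leaves out, and the gene of smallest P of each list. Some genes under this rule are not reported here. Members, lists, the choice of 4 libraries and the tests were chosen with earlier results of these data known. Python 3.11.15 with matplotlib 3.10.9 drew the figures.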

Additional observations from a re-analysis of the deposited data

Results flagged for a closer look

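The summed level of the 78 ribosomal protein genes was 117624 CPM for the library labelled siRNA596 replicate 2, left out of the comparison of 4 libraries, against 33625 and 36643 CPM in the NC libraries. Gas5 was at 179 CPM in that library, against 76.0 and 90.3 CPM in the NC libraries.

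The 2 siRNAs lay on opposite sides of both NC libraries for 2 members, chosen after their values were seen. Rps25 was at a log2 ratio to the NC mean of -0.016 with siRNA210 and 0.021 in siRNA596 replicate 1. Rps7 was at -0.018 with siRNA210 and 0.026 in siRNA596 replicate 1. All these ratios were smaller in size than the SE of the KD against NC fold change, 0.076 for each gene. The library labelled siRNA596 replicate 2 was above NC for both, but it held the highest value for 77 of the 78 members. Its place above NC is therefore not particular to Rps25 and Rps7. The differences between the siRNAs were not tested, and siRNA210 has 1 library.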

How the results depend on the processing

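0 members had an adjusted P under 0.05 in edgeR or DESeq2 under any of 13 alternatives. At an unadjusted P under 0.05 the count of members was 0 with all 5 libraries, with offsets for length and GC content, with DESeq2 and for siRNA596 alone, and 1 to 17 with each library left out (17 without NC replicate 1, 3 without NC replicate 2). A fit with 1 of the 4 libraries left out leaves 1 library in a group, so the counts from these fits are a description only. Without NC replicate 1 the share of all genes under this threshold was also larger than in the main fit, in both directions. The count of 17 is therefore not particular to the members. The median log2 fold change of the members was 0.89 with all 5 libraries, 0.33 with the offsets, 1.17 for siRNA596 alone without a block, and -0.0050 to 0.10 with each library left out. Their median log2 ratio in the library labelled siRNA596 replicate 2 was 1.52 by library size only and 0.75 with the offsets. Gas5 was at 0.29 with all 5 libraries, -0.15 with the same libraries and the offsets and 0.56 for siRNA596 alone, and between -0.53 and -0.28 with each library left out. The fits for siRNA596 alone, with or without a block, hold the library labelled siRNA596 replicate 2. In siRNA596 replicate 1 the log2 ratio to the NC mean was -0.34 for Gas5, and its median over the members was 0.03. The cause of the shifts between settings was not tested.

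The replicate numbers are shared by NC and siRNA596, and deviations of same-numbered libraries correlated at r = 0.085 over 15867 genes. The siRNA596 deviations were taken from a mean that holds the library labelled siRNA596 replicate 2, which stood apart. This r therefore cannot show whether same-numbered libraries were paired. With the replicate block (siRNA596 against NC) Gas5 was at 0.39, the median of the members at 0.91, and 0 members had an unadjusted P under 0.05.

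Of 129 values of the 10 members named for their P, 20 changed sign and 0 passed an adjusted P of 0.05. All 5 libraries, the block, no block and the offsets gave, in this order, 0.96, 0.69, 1.32 and 0.33 for Rps27a, 0.86, 0.85, 1.19 and 0.17 for Rps29, 0.89, 0.91, 1.22 and 0.35 for Rpl30, and 0.85, 0.87, 1.16 and 0.37 for Rps27l. With each library left out Rps29 ran from -0.34 to 0.033 (without NC replicate 1) and Rpl24 from -1.90 (without siRNA596 replicate 1) to 0.0025 (without siRNA210). Rpl24 was at 0.41 with the block and 0.43 without it. The list of ribosome assembly factors, tried in other libraries after the data were seen, gave medians of -0.24 to -0.013 with an NC library left out and 0.22 with all 5.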
